A study of Mus musculus with 6 samples.

Results

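The genes described here encode the axon guidance ligands and their receptors: semaphorins with plexins and neuropilins, ephrins with Eph receptors, slits with Robos, and netrins with Dcc, Neo1 and the Unc5 receptors. They were picked out by symbol as members of these families, with no threshold on their values, and numbered 69 of the 25655 genes in the table, 35 encoding ligands and 34 receptors. Robo4 is not analysed here. Expression was measured by RNA sequencing of poly(A) RNA in Comma-Dβ, an established line of mouse mammary epithelial cells. Every library came from cells at passage 29 that were transfected with a siRNA pool at 20 nM and harvested 48 hr later. The siID4 arm received the siGENOME Mouse Id4 SMARTpool and the NT arm the ON-TARGETplus Non-targeting Control Pool, with 3 replicates in each arm. The arms therefore differed in siRNA product line as well as in target, and the effects of these cannot be told apart. Whether the replicates came from separate cultures is not given in the sources used here, so p-values measure the spread between these libraries only.

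Guidance molecules were first described as cues that attract or repel growing axons. Semaphorins act through plexins, with neuropilins as co-receptors for the secreted class, and ephrins act through the Eph tyrosine kinases between cells in contact. Slits signal through Robos, and netrins through Dcc, its relative neogenin (Neo1) and the Unc5 receptors. In the mammary gland netrin 1 and neogenin are known for holding the cap and luminal layers of the growing end bud together, and slits with Robo1 for limiting the number of basal cells and the branching of ducts. ID4 is an inhibitor of DNA binding that pairs with other helix-loop-helix proteins, among them E proteins, and so keeps them from E-box sequences.

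Library totals ran from 19216688 to 23095620 counts. Id4 mRNA went from 122 ± 11.5 CPM (counts scaled to library size; SD, n = 3) in NT to 56.6 ± 7.41 CPM in siID4 (−1.11 on the log2 scale, SE 0.10, with an adjusted p of 8.65e-04 by edgeR's quasi-likelihood test). All 8 fixed markers of mammary epithelium were above 1 CPM, including the basal keratin gene Krt5 and the luminal keratin gene Krt8. Their sum was 2417 to 2794 CPM in NT and 2242 to 2633 CPM in siID4. Of these markers Cdh1 (log2 fold change 0.24, adjusted p = 0.0234 by edgeR) and Trp63 (0.27, 0.0279) rose and Epcam fell (−0.25, 0.0211). The summed level of 8 fibroblast markers was 1336 to 1555 CPM in NT and 1729 to 1906 CPM in siID4, with Thy1, Dpt and Lum below 1 CPM. Its members did not move together: Col1a2, which made up most of the sum, and Pdgfrb rose, Pdgfra fell (56.0 to 36.3 CPM, adjusted p = 0.0257), and Dcn was at 62.6 CPM in NT and 49.1 CPM in siID4 (adjusted p = 0.372). None of 8 endothelial markers reached 1 CPM, Tie1 was at 0, and their sum was 0.731 to 1.19 CPM in NT and 1.71 to 2.37 CPM in siID4. Of 8 leukocyte markers, Cd14 and Cd68 reached 1 CPM, with a summed level of 17.2 to 25.1 CPM in NT and 16.4 to 23.1 CPM in siID4. Of 8 neuronal and glial markers 4 reached 1 CPM, with Rbfox3 at 0 and a sum of 86.1 to 89.2 CPM in NT and 93.3 to 103.6 CPM in siID4. The part of the epithelial, fibroblast, endothelial and neuronal markers in the results below was not tested.

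Knockdown of Id4 went with a lower level of 3 guidance ligand genes and 1 receptor gene and a higher level of 5 receptor genes and 2 ligand genes. These were 20.0% of the 55 guidance genes tested. Of all genes tested 9.55% passed, 4.62% upward and 4.93% downward. Ntn1 and Sema7a fell, to 0.588 and 0.602 of their NT means, and Sema5a and Epha2 fell by less. Plxnd1 rose to 1.42 times its NT mean, Robo2 and Sema3d each rose by 0.65 on the log2 scale with more spread between libraries, and Neo1 and Nrp1 rose by small amounts from high levels. Plxna4 and Ntn3 rose from levels below 1 CPM. Both met the filter on low counts in all libraries of the siID4 arm only, so their selection was tied to the difference. A change in a bulk sample can come from fewer cells that hold a transcript or from less transcript per cell, and these cannot be told apart.

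Of the 69 genes, 55 passed a filter on low counts and were tested, and 11 of them (20.0%) passed at an adjusted p under 0.05, 7 upward and 4 downward. Over all 13941 genes tested, 9.55% passed, 4.62% upward and 4.93% downward. The p-values were adjusted over all genes tested. The filter required 10 counts at the median library size, or 0.451 CPM, in at least 3 libraries. In all, 51 of the 55 reached that level in every library of both arms, and 9 of these passed. Ntn3, Plxna4 and Ephb1 met it in all 3 libraries of the siID4 arm only, where they were higher, so their selection was tied to the difference. The other 14 genes were below the filter and had means of at most 0.265 CPM, 2 of them with no count in any library. When low counts were kept the others were tested too, with adjusted p of 0.124 (Plxnc1) or more by edgeR. The median log2 fold change was 0.07 over the 55 and 0.00 over all genes tested. The arms did not overlap in 21 of the 55 (38.2%), as in 30.9% of all genes tested. With 3 libraries an arm, the smallest two-sided p of an exact permutation test for one gene is 0.1.

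With the replicate number as a block in the model, 25 of the 55 passed, among them all 11 named above. They were 17 up, where 17.9% of all genes tested rose, and 8 down, where 18.3% fell (36.1% in all). DESeq2 called 6 up and 4 down, beside 5.31% and 6.08% of the genes it adjusted (11.4% in all). With limma-voom 6 rose and 4 fell, beside 4.73% and 4.94% of all genes (9.67% in all). Omitting one library changed the counts for guidance genes and for all genes. There were 9 up and 3 down without NT replicate 1 (9.54% of all genes passed), 1 up and 2 down without NT replicate 2 (4.44%), and 3 up and 4 down without NT replicate 3 (6.40%). There were 2 up and 4 down without siID4 replicate 1 (6.27%), 2 up and 2 down without siID4 replicate 2 (3.14%), and 8 up and 3 down without siID4 replicate 3 (6.83%). Ntn1, Sema7a and Plxnd1 passed in all 6 such fits. With library totals in place of TMM scaling 829 genes rose and 564 fell where TMM gave 644 and 687, while the counts of guidance genes were 7 and 4 under both.

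**Figure D1:**
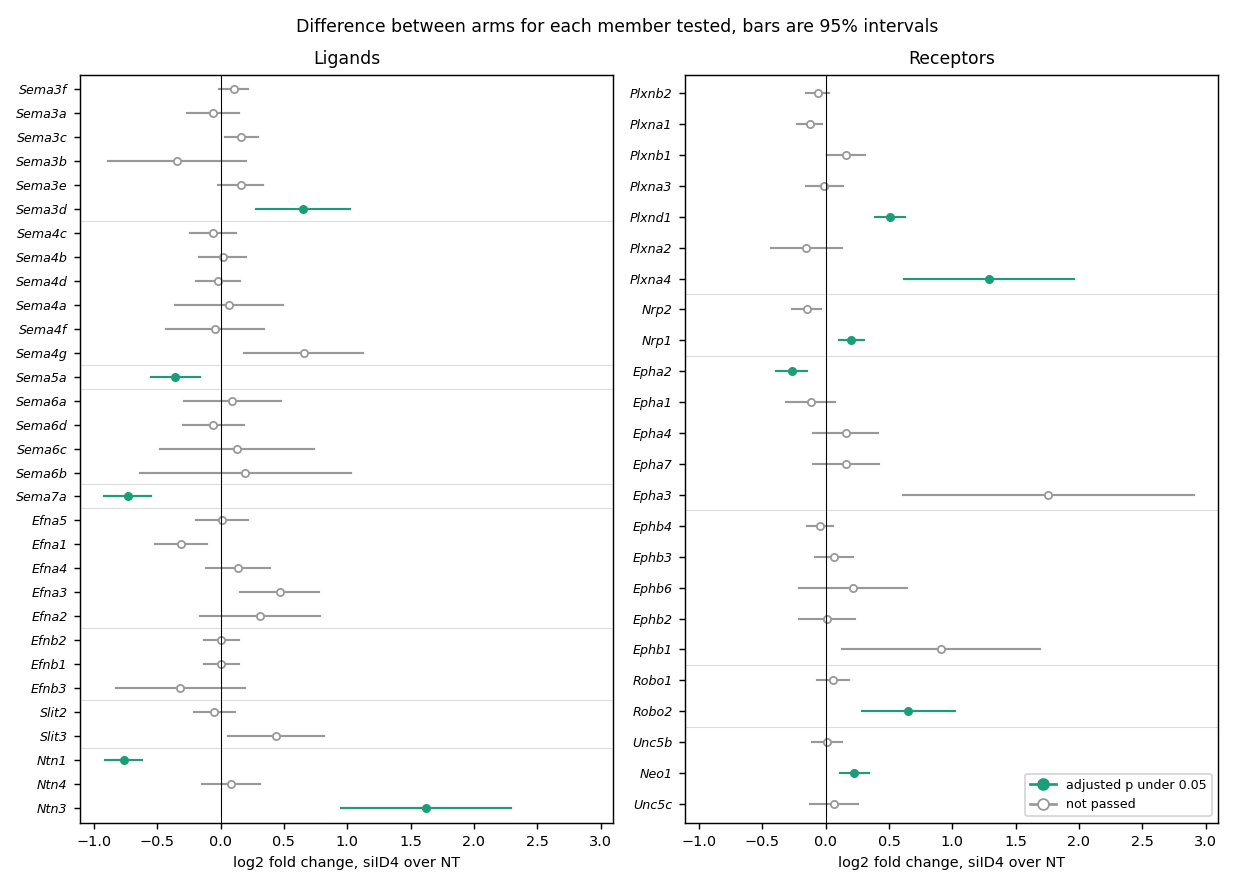
Log2 fold change of siID4 over NT for each of the 55 guidance genes tested, ligands on the left and receptors on the right, grouped by family; points are edgeR estimates, bars are 95% intervals, and filled points have an adjusted p under 0.05. The intervals of Ntn1, Sema7a and Plxnd1 lie far from 0 and are narrow, while those of Epha3, Sema6b, Ephb1, Ntn3, Plxna4 and Sema6c are wide.

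E proteins bind the E-box, CANNTG, in DNA, so the DNA upstream of the transcription starts of these genes was read for its forms CAGCTG and CAGGTG (the latter also as its reverse complement, CACCTG). RefSeq promoter windows on GRCm38.p6 were found for 9 of the 11 called genes, and the 250 bases before each start were searched. CAGCTG stood in the windows of 2 of the 9 genes, against 14.7% of all 27025 genes with a window. CAGGTG stood in those of 1 of the 9, against 19.4%. Of the 48 guidance genes tested that had a window, 12.5% held CAGCTG and 18.8% CAGGTG. The sites are shown with up to 12 bases on either side, 5′ to 3′ on the gene's strand, with the E-box in capitals, because they are the matches of these forms among the called genes.
Robo2, chr16:74411845-74411874, minus strand, 37 bases before the start: tccagcccccagCAGCTGctggaggaggcg
Sema7a, chr9:57939907-57939936, plus strand, 193 bases before the start: ctgtcttctttgCAGCTGggttctcccggt
Sema3d, chr5:12382944-12382973, plus strand, 210 bases before its RefSeq start: tttacaaagaaaCACCTGtactcttccaag
The RefSeq start of Sema3d lies upstream of the GENCODE start given with its values below. Any CANNTG stood in the windows of 3 of the 9 called genes, against 47.9% of the guidance genes tested and 69.3% of all genes. Robo2 and Sema3d rose and Sema7a fell, so the 3 genes with such a match did not share a direction. A match is a description of the letters and not evidence of binding.

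Levels are compared between genes as TPM, which divides counts by gene length. Guidance genes spanned from no counts to the level of Plxnb2, a receptor for class 4 semaphorins, at 162 ± 4.95 TPM in NT and 160.0 ± 2.75 TPM in siID4. In NT the next highest were Epha2 at 90.7 ± 4.91 TPM, Sema3f, a secreted semaphorin, at 89.1 ± 3.28 TPM, Ephb4 at 86.7 ± 2.93 TPM and Slit2 at 85.2 ± 4.15 TPM. Neighbours among these 4 differed by less than the SD of either. Nrp2 followed at 76.2 ± 1.10 TPM and Sema3a at 66.0 ± 7.89 TPM. The highest netrin receptor gene was Unc5b, the highest Robo was Robo1 and the highest ephrin was Efnb2. Epha10 and Unc5d had no counts, and Dcc, Unc5a, Robo3, Ntn5, Epha5, Epha6 and Sema5b had mean levels below 0.1 CPM.

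**Figure D2:**
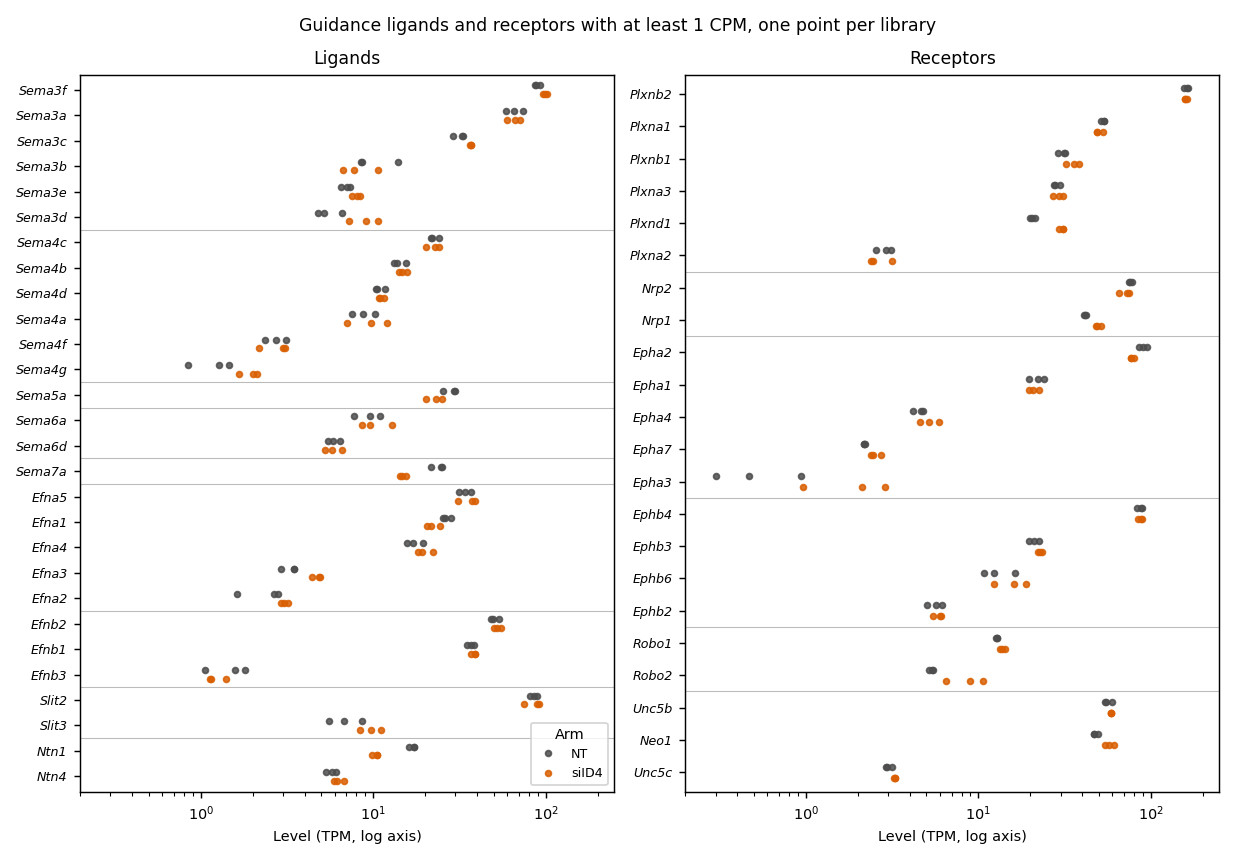
TPM on a log axis of the 50 guidance genes whose mean reached 1 CPM, one point per library, NT in grey and siID4 in orange, with families separated by lines. The NT and siID4 points of Ntn1, Sema7a and Plxnd1 stand apart, and most other genes have points of both arms side by side.

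The transcript of netrin 1 fell and that of its receptor neogenin rose. Ntn1 (ENSMUSG00000020902; chr11:68209364-68400823 on GRCm38, minus strand) encodes the secreted ligand. Its level was 49.9, 52.5 and 53.5 CPM in NT and 29.1, 30.9 and 31.7 CPM in siID4. Every siID4 library lay well below every NT library, and the spread within an arm was small. The log2 fold change was −0.77 (SE 0.06, adjusted p = 3.91e-04 by edgeR). Across the 6 fits without one library its adjusted p was at most 0.00679.

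Neo1 (ENSMUSG00000032340; chr9:58874687-59036441 on GRCm38, minus strand) encodes neogenin, which binds netrins and repulsive guidance molecules. It was at 196, 184 and 186 CPM in NT and 233, 218 and 211 CPM in siID4. The arms did not overlap, with each siID4 library above its same-numbered NT library. The difference was 0.22 on the log2 scale (SE 0.05, adjusted p = 0.0265 by edgeR). Neo1 did not pass without NT replicate 2 (adjusted p = 0.111), NT replicate 3 (0.0641), siID4 replicate 1 (0.0772) or siID4 replicate 2 (0.0963).

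The dependence receptor gene Unc5b, at 57.6 TPM over all libraries, had a log2 fold change of 0.01 with a 95% interval of −0.11 to 0.13. Its relative Unc5c had 0.07 with an interval of −0.12 to 0.26. Dcc, which encodes the classical attractive receptor, had a mean of 0.0550 CPM, below the filter. Ntn4, a netrin of basement membranes, had a log2 fold change of 0.09 (interval −0.14 to 0.31, adjusted p = 0.656).

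Ntn3, another secreted netrin, was, with Plxna4, one of the genes that passed at mean levels below 1 CPM. It was at 0.402, 0.313 and 0.308 CPM in NT and 1.17, 0.861 and 1.14 CPM in siID4, from 6 to 8 counts in an NT library and 19 to 27 in a siID4 library. The arms did not overlap, but Ntn3 met the filter in all libraries of the siID4 arm only, so its selection was tied to the difference. On the log2 scale siID4 over NT was 1.62 (SE 0.30, adjusted p = 0.0108 by edgeR), with 0.0525 without NT replicate 2, and DESeq2 gave it no adjusted p. Its identifier in the table is not in GENCODE M21, where the gene of that symbol lies at chr17:24203848-24209531 (minus strand) and shares exon sequence with Tbc1d24 on the same strand and with BC028777 on the other. Tbc1d24 was at 21.8 ± 1.54 CPM in NT and 23.2 ± 1.18 CPM in siID4, so the division of reads between these genes makes the Ntn3 value uncertain.

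**Figure D3:**
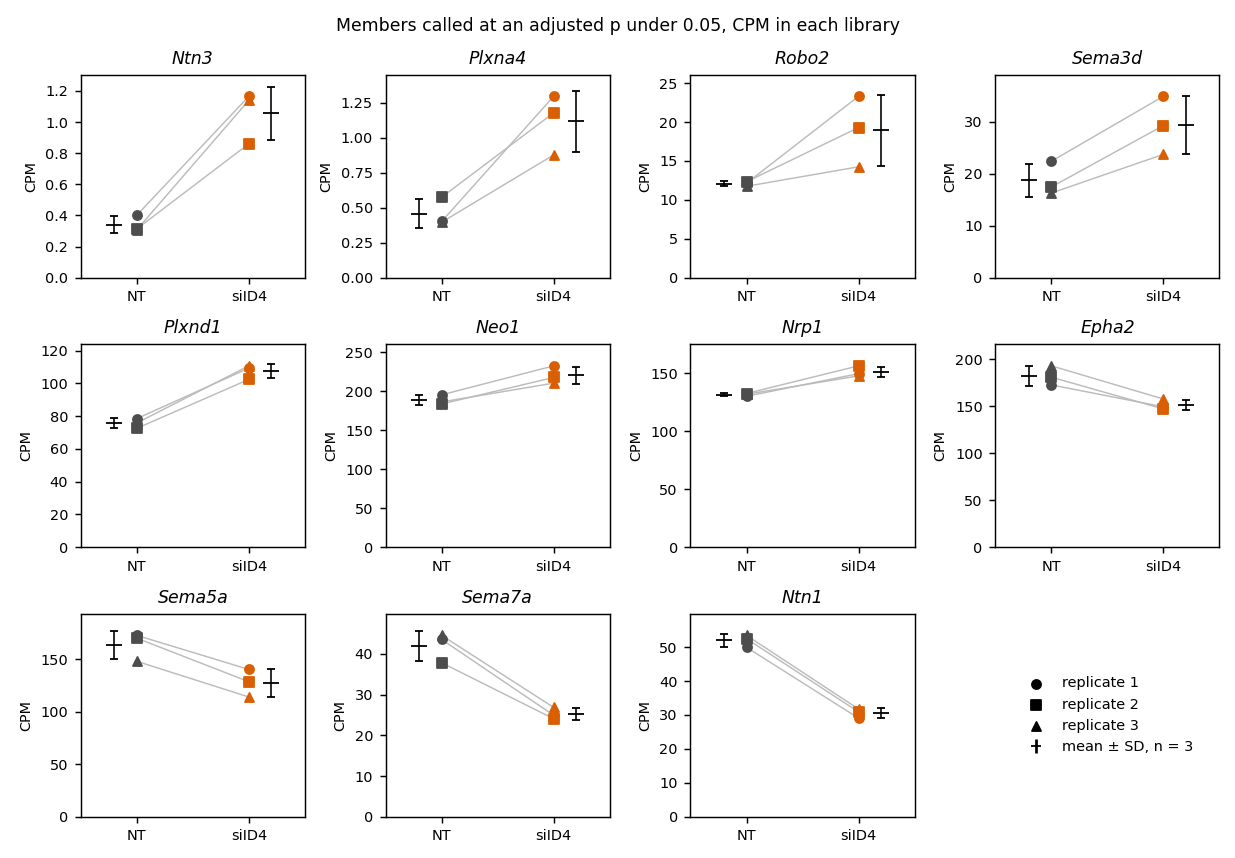
CPM of the 11 guidance genes with an adjusted p under 0.05, from the most raised to the most lowered, with NT on the left and siID4 on the right of each panel; symbols mark replicate numbers, grey lines join libraries of the same number, and bars are mean ± SD (n = 3). The NT and siID4 points do not overlap in any panel, but the genes were chosen by a test on these same libraries. Over all genes tested the arms did not overlap in 30.9%. In Robo2 and Sema3d the siID4 points spread more widely than the NT points.

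Among 18 semaphorin genes tested, Sema7a and Sema5a fell, Sema3d rose and 15 did not pass. Of all genes tested 4.93% fell and 4.62% rose. Sema7a (ENSMUSG00000038264; chr9:57940112-57962865 on GRCm38, plus strand) encodes a membrane-anchored semaphorin that binds plexin C1 and integrins and carries the CAGCTG shown above. Its level was 43.5, 37.8 and 44.5 CPM in NT and 24.9, 24.0 and 26.8 CPM in siID4. The siID4 libraries were all lower, by more than the range of either arm. The log2 fold change was −0.73 (SE 0.08, adjusted p = 0.00155 by edgeR), and the adjusted p was at most 0.0175 without any one library. Plxnc1, the gene of its plexin receptor, was near the floor: its counts were 0, 2 and 2 in NT and 8, 9 and 3 in siID4. It was below the filter, and its adjusted p was 0.124 in the fit that kept low counts.

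Sema5a (ENSMUSG00000022231; chr15:32244810-32696341 on GRCm38, plus strand) encodes a transmembrane semaphorin with thrombospondin repeats. It was at 173, 169.9 and 148 CPM in NT and 140.1, 128 and 114 CPM in siID4. Library 3 was the lowest of each arm, and the arms did not overlap. The difference was −0.36 on the log2 scale (SE 0.08, adjusted p = 0.0324 by edgeR). It did not pass without NT replicate 1 (adjusted p = 0.0698), NT replicate 2 (0.114), siID4 replicate 2 (0.123) or siID4 replicate 3 (0.0651).

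Sema3d (ENSMUSG00000040254; chr5:12383385-12588948 on GRCm38, plus strand) encodes a secreted semaphorin. Its level was 22.4, 17.4 and 16.3 CPM in NT and 34.9, 29.3 and 23.7 CPM in siID4. Library 1 was the highest of each arm, and the lowest siID4 library lay just above the highest NT library. On the log2 scale siID4 over NT was 0.65 (SE 0.16, adjusted p = 0.0419 by edgeR). It missed the threshold when genes of low count were kept (adjusted p = 0.0636) and without NT replicate 2 (0.136), NT replicate 3 (0.106), siID4 replicate 1 (0.0873) or siID4 replicate 2 (0.137).

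The more abundant secreted semaphorins differed little. Sema3f had a log2 fold change of 0.11 (interval −0.01 to 0.22, adjusted p = 0.232), Sema3a of −0.06 (interval −0.26 to 0.14) and Sema3c of 0.16 (interval 0.03 to 0.30, adjusted p = 0.117). With the replicate block Sema3f (adjusted p = 0.0179), Sema3c (5.59e-04), Sema3e (0.0479) and Sema3b (0.00128) passed, the first 3 upward and Sema3b downward. The 6 class 4 genes, which encode transmembrane ligands mainly of B plexins, had log2 fold changes from −0.06 to 0.65 and none passed. The largest of these fold changes was that of Sema4g, at 2.79 ± 0.735 CPM in NT and 4.37 ± 0.492 CPM in siID4 (adjusted p = 0.0808 by edgeR). Sema4g passed with the block (8.48e-04), when genes of low count were kept (0.0397) and without NT replicate 1 (0.0455). The most abundant class 4 gene, Sema4c, had −0.06 (interval −0.24 to 0.12). The 4 class 6 genes had log2 fold changes from −0.06 to 0.20 and none passed under the block either.

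Of 7 plexin genes tested, 2 rose, where 4.62% of all genes tested rose. One of them, Plxna4, met the filter in all libraries of the siID4 arm only. Plxnd1 (ENSMUSG00000030123; chr6:115954811-115995005 on GRCm38, minus strand) encodes the receptor of SEMA3E and, with neuropilins, of other secreted semaphorins. Its level was 78.5, 72.6 and 75.8 CPM in NT and 109, 102 and 111 CPM in siID4. All siID4 libraries lay above all NT libraries by far more than the spread within an arm. The log2 fold change was 0.51 (SE 0.05, adjusted p = 0.00114 by edgeR), with an adjusted p of at most 0.0125 without any one library. Plxnd1 is also a gene of endothelial cells. Their 8 fixed markers summed to 0.731 to 1.19 CPM in NT and 1.71 to 2.37 CPM in siID4. Their part in the rise of Plxnd1 was not tested.

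Plxna4 (ENSMUSG00000029765; chr6:32144268-32588192 on GRCm38, minus strand) encodes a receptor of class 6 semaphorins and a partner of neuropilin 1. It was at 0.402, 0.574 and 0.396 CPM in NT and 1.30, 1.18 and 0.877 CPM in siID4. The arms did not overlap at this low level, but Plxna4 was selected through the siID4 arm, so the selection was tied to the difference. The difference was 1.29 on the log2 scale (SE 0.30, adjusted p = 0.0281 by edgeR). It did not pass with DESeq2 (adjusted p = 0.0776) or without NT replicates 1 (0.0665), 2 (0.0598) or 3 (0.0890) or siID4 replicates 1 (0.0872) or 2 (0.114). The antisense gene Plxna4os3 overlaps its exons, and the strand setting of the counting is not given in the sources used here.

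Abundant plexins differed little between the arms. Plxnb2 had a log2 fold change of −0.06 (interval −0.16 to 0.03, adjusted p = 0.383), and Plxna3 of −0.01 (interval −0.16 to 0.14). Plxna1, a co-receptor for secreted semaphorins, was 245 ± 5.54 CPM in NT and 224 ± 8.14 CPM after knockdown (log2 fold change −0.13, adjusted p = 0.112), and Plxnb1, a receptor of SEMA4D, was 102 ± 5.09 CPM and 114 ± 9.10 CPM (0.16, adjusted p = 0.165). With the block Plxna1 passed downward (adjusted p = 5.97e-04) and Plxnb1 upward (2.73e-04).

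The neuropilin genes had differences of opposite sign. Nrp1 (ENSMUSG00000025810; chr8:128358604-128503363 on GRCm38, plus strand) encodes a co-receptor of secreted semaphorins and of VEGF. It was at 130.2, 133 and 132 CPM in NT and 149.8, 157 and 148 CPM in siID4. The NT libraries lay within a narrow range, below every siID4 library. On the log2 scale siID4 over NT was 0.20 (SE 0.04, adjusted p = 0.0214 by edgeR). It did not pass without NT replicate 2 (adjusted p = 0.0794), siID4 replicate 1 (0.0504) or siID4 replicate 2 (0.115). Nrp2, the more abundant of the pair per length, was at 263, 253 and 259 CPM in NT and 245, 236 and 217 CPM after knockdown (log2 fold change −0.15, interval −0.27 to −0.03, adjusted p = 0.103). Its arms did not overlap, and it passed with the block (adjusted p = 1.92e-04).

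Among slits and Robos, Robo2 rose. Robo2 (ENSMUSG00000052516; chr16:73891839-74411825 on GRCm38, minus strand) encodes a slit receptor and carries the other CAGCTG shown above. Its level was 12.1, 12.3 and 11.7 CPM in NT and 23.3, 19.3 and 14.2 CPM in siID4. The NT libraries were almost level, while the siID4 libraries ranged widely and siID4 replicate 3 lay only a little above them. The log2 fold change was 0.65 (SE 0.16, adjusted p = 0.0383 by edgeR). It did not pass with limma-voom (adjusted p = 0.0571) or without NT replicates 1 (0.0759), 2 (0.110) or 3 (0.0992) or siID4 replicates 1 (0.0743) or 2 (0.140).

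The other slit receptor tested, Robo1, was at 51.7 ± 0.446 CPM in NT and 53.9 ± 2.00 CPM after knockdown (log2 fold change 0.06, interval −0.07 to 0.18). Slit2, the most abundant slit gene, was at 223 ± 10.5 CPM and 215 ± 20.5 CPM (−0.05, interval −0.21 to 0.11). Slit3 was at 23.9, 18.5 and 15.3 CPM in NT and 29.8, 25.7 and 22.6 CPM in siID4. Its arms overlapped, but each siID4 library exceeded the NT library of its number. The difference was 0.44 on the log2 scale (SE 0.16, adjusted p = 0.137 by edgeR), and Slit3 passed with the block (7.99e-07) and without NT replicate 1 (0.0215).

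Of 18 ephrin and Eph genes tested, only Epha2 passed in the edgeR fit of all 6 libraries without a block, where 9.55% of all genes tested passed. Epha2 (ENSMUSG00000006445; chr4:141301240-141329384 on GRCm38, plus strand) encodes the main Eph kinase of many epithelia. It was at 173, 181 and 193 CPM in NT and 149.5, 147 and 158 CPM in siID4. The highest siID4 library lay below the lowest NT library. On the log2 scale siID4 over NT was −0.27 (SE 0.05, adjusted p = 0.0165 by edgeR). It did not pass without NT replicate 2 (adjusted p = 0.0645), siID4 replicate 1 (0.0517) or siID4 replicate 2 (0.0976).

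The gene of its preferred ligand, Efna1, was at 22.5, 19.9 and 20.9 CPM in NT and 18.6, 15.6 and 16.7 CPM in siID4. The arms did not overlap, and the log2 fold change was −0.31 (SE 0.09, adjusted p = 0.0644 by edgeR). Efna1 passed with the block (adjusted p = 1.67e-04) and without siID4 replicate 1 (0.0453). Efna3 was at 3.64 ± 0.394 CPM in NT and 5.04 ± 0.296 CPM in siID4 (0.47, adjusted p = 0.0685) and passed with the block (0.00682). The most abundant ephrin-A gene, Efna5, had 0.01 (interval −0.19 to 0.22).

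Epha3, which encodes a receptor of ephrin-A ligands, had the largest estimate of all guidance genes tested. It was at 2.86, 1.41 and 0.924 CPM in NT and 8.42, 6.11 and 2.85 CPM in siID4. Library 1 was highest and library 3 lowest in both arms, so that siID4 replicate 3 lay just below NT replicate 1, although within each number siID4 was the higher. The log2 fold change was 1.76 (SE 0.49, adjusted p = 0.0677 by edgeR). Epha3 passed with the block (adjusted p = 2.54e-10), with DESeq2 (8.52e-04) and without NT replicate 1 (0.0466) or siID4 replicate 3 (0.0181).

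The ephrin-B and EphB genes, a ligand and receptor set known for cell sorting at tissue borders, did not pass. Efnb1 and Efnb2 each had a log2 fold change of 0.01, with intervals of −0.13 to 0.14 for both. Ephb4, the highest EphB gene per length, had −0.04 (interval −0.15 to 0.06), and Ephb3 had 0.07 (interval −0.09 to 0.22). Ephb6, whose product lacks kinase activity, was at 30.6, 23.1 and 20.3 CPM in NT and 34.3, 29.0 and 22.5 CPM in siID4. Its arms overlapped widely (0.22, adjusted p = 0.519), and it passed with the block (0.00426). Ephb1, at 0.618 ± 0.340 CPM in NT and 1.16 ± 0.0704 CPM in siID4 (0.91, adjusted p = 0.137), passed with the block (0.0173) and without NT replicate 1 (0.0284).

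Set side by side, ligand and receptor genes of known pairs did not all share a direction. Efna1 and Epha2 had log2 fold changes of −0.31 and −0.27. Ntn1 had −0.77 while Neo1 had 0.22 and Unc5b 0.01. Sema3e had 0.16 and its receptor gene Plxnd1 0.51, and Sema4a, another ligand of that receptor, had 0.07. Slit2 had −0.05 beside 0.06 for Robo1 and 0.65 for Robo2. Efnb2 and Ephb4, a pair known from vessels, had 0.01 and −0.04. Differences between a ligand and its receptor were not tested. By role, 2 ligand genes rose and 3 fell of 31 tested, and 5 receptor genes rose and 1 fell of 24 tested. Those that rose include Ntn3 and Plxna4, which met the filter in all libraries of the siID4 arm only. Over all genes tested 4.62% rose and 4.93% fell. The contrast between ligands and receptors was not tested either.

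**Figure D4:**
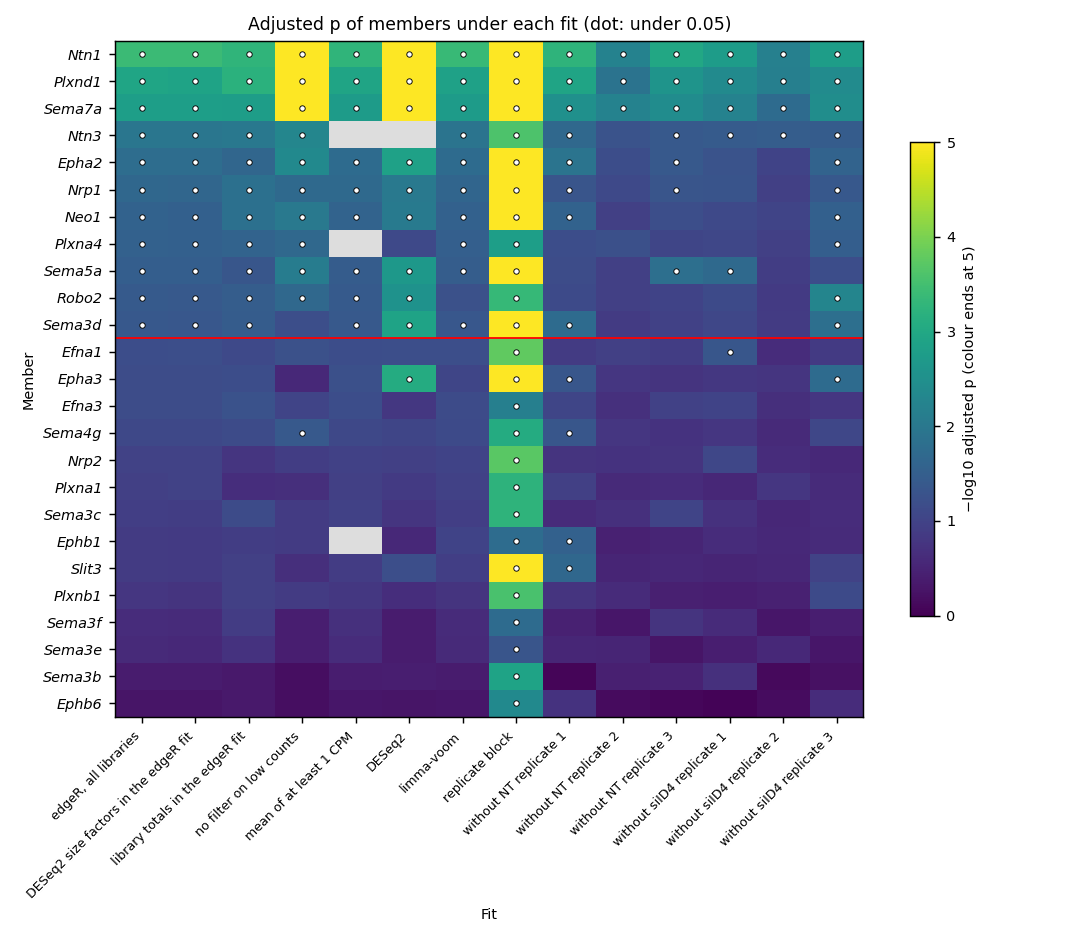
Adjusted p of the 25 guidance genes that passed in the edgeR fit of all libraries (above the red line) or with the replicate block (below it), for each fit; colour is −log10 of the adjusted p, capped at 5, white dots mark values under 0.05, and pale grey marks fits that gave no value. Ntn1, Plxnd1 and Sema7a have dots in every column, and the 14 genes below the line have dots mainly in the column of the replicate block.

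Genes of the same pathways outside the families were read from lists of 81 symbols. All but Dpysl4 had a row, Mical3 had 2 rows, and 74 rows were tested. The levels of 2 rose and of 4 fell (8.11% passed, against 9.55% of all genes tested), with a median log2 fold change of −0.00281. All 19 rows tested for effectors of plexins missed the threshold in the edgeR fit with TMM scaling and the filter, without a block. Among them were the Mical oxidoreductases, with Mical3 in 2 rows, and the collapsin response mediator genes Dpysl2, Dpysl3 and Dpysl5. With the replicate block the collapsin response mediator gene Dpysl3 passed downward (adjusted p = 1.16e-08) and Fyn (3.24e-04), Mras (0.0113) and Farp2 (0.0167) upward. Without NT replicate 1 Dpysl3 (0.0241) and Fyn (0.0289) passed, as did Dpysl3 without siID4 replicate 3 (0.0462). The other lists also held genes that passed only with the block. Among them were Arhgef19 (adjusted p = 0.00128 with the block) and Enah (1.96e-04) upward and Abl2 (9.29e-04) and Srgap3 (6.68e-04) downward. Of 20 Eph and ephrin effectors Rasa1, a Ras GTPase-activating protein, fell (130.4 ± 3.27 to 108.6 ± 3.30 CPM, or −0.26 on the log2 scale, adjusted p = 0.00868 by edgeR), but not without siID4 replicate 2 (0.0567). Of 17 slit, Robo and netrin effectors Vasp, which promotes actin filament growth, rose (0.21, adjusted p = 0.0164), but not without NT replicate 2 (0.0818), siID4 replicate 2 (0.0734) or siID4 replicate 3 (0.0528).

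Of 18 other ligands and co-receptors tested, 3 fell and 1 rose, where 4.93% of all genes tested fell and 4.62% rose. Gpc1, a heparan sulfate proteoglycan that binds slits, was at 205.4 ± 11.1 CPM in NT and fell by 0.58 on the log2 scale to 137 ± 6.76 CPM (adjusted p = 7.78e-04 by edgeR) and passed in all 6 fits without one library. Vegfa, a ligand of neuropilins, fell by 0.45 on the log2 scale (adjusted p = 0.00736, and 0.0508 without siID4 replicate 2). Erbb2, a partner of B plexins, fell by 0.21 (adjusted p = 0.0285). It missed the threshold without NT replicate 2 (0.102), NT replicate 3 (0.0662), siID4 replicate 2 (0.127) or siID4 replicate 3 (0.0869). Flt1, a VEGF receptor, rose by 0.36 (adjusted p = 0.0138, and 0.0671 without siID4 replicate 2). With the block 14 of the 74 rose and 17 fell, where 36.1% of all genes tested passed. Under library totals 6 rose, where 829 of all genes rose, against 644 with TMM scaling. Leaving out NT replicate 1 gave 9 that fell (9.54% of all genes passed). Leaving out siID4 replicate 2 gave 1 that fell and 0 that rose (3.14% of all genes passed). A single one rose when NT replicate 2 (4.44% of all genes passed) or siID4 replicate 3 (6.83%) was left out.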

How the data were processed

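The authors deposited one table of expected counts per gene for 6 libraries, with gene lengths. Per the submitters' processing notes, cutadapt, STAR, RSEM and the build mm10 were used; the annotation, the strand setting and each version were not given in the sources used here. RSEM divides shared reads between genes by estimate, and its values were rounded (10.0% to 10.6% of values per library were not whole). edgeR 4.0.16 in R 4.3.3 fitted group alone, with filterByExpr, TMM and robust quasi-likelihood, and Benjamini-Hochberg adjustment over 13941 genes. SE is the log2 fold change divided by the root of F, and 95% intervals use the fit's degrees of freedom. CPM is TMM-scaled; TPM uses the deposited lengths. DESeq2 1.42.0, limma-voom (limma 3.58.1), other scalings and filters, a replicate block and omission of each library were alternatives. Same-numbered libraries deviated together across genes (0.424, 0.140 and 0.378; the labels do not say what they share). No libraries of an arm agreed within sampling noise. The fits were tested on simulated data.

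Members and lists were chosen with earlier results of these data known. Every member could be named, in full where it passed; otherwise those that DESeq2, limma-voom or the block called, or that were highest in their family; of the other pathway genes, those that passed. Positions come from GENCODE M21 (68 of 69 identifiers matched, Ntn3 by symbol) and promoter sequences from RefSeq on GRCm38.p6 (59 of 69 symbols matched).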

Additional observations from a re-analysis of the deposited data

How the results depend on the processing

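Counts of guidance genes that passed were within 1.5 times the 7 up and 4 down given above under DESeq2 size factors, library totals, no filter on low counts, a mean of at least 1 CPM, DESeq2 and limma-voom. Without one library they ranged from 1 to 9 up and from 2 to 4 down, over all genes from 221 to 686 up and from 224 to 665 down, and over the other pathway genes from 0 to 3 up and from 1 to 9 down. With the replicate block the counts were 17 up and 8 down for guidance genes and 2493 up and 2545 down for all genes. For the other pathway genes they were 14 up and 17 down. With library totals 6 of the other pathway genes rose, beside 829 of all genes. The block ended no call among the 11. The log2 fold changes of some genes that did not pass changed sign when one library was omitted. They ranged from −0.0494 to 0.0999 for Efna5, −0.0348 to 0.0478 for Efnb1, −0.034 to 0.0564 for Efnb2, −0.0639 to 0.0738 for Ephb2 and −0.0503 to 0.034 for Plxna3. Others ranged from −0.14 to 0.0342 for Sema3a, −0.12 to 0.24 for Sema4a, −0.0334 to 0.0912 for Sema4b, −0.0568 to 0.0389 for Sema4d and −0.14 to 0.10 for Sema4f. The rest ranged from −0.0942 to 0.21 for Sema6a, −0.0432 to 0.48 for Sema6b, −0.15 to 0.00977 for Sema6d, −0.10 to 0.0258 for Slit2 and −0.0208 to 0.0596 for Unc5b. With library totals Plxna3 had 0.0198 and Sema4d 0.00846. For all these the cause was not tested, and the fits without one library also rest on fewer libraries. The 14 guidance genes below the filter were left out by that choice; 12 of them were tested when low counts were kept, with adjusted p of 0.124 (Plxnc1) or more by edgeR.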

Other observations

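In 22 of the 55 guidance genes tested (40.0%), replicate 1 was the highest library of its arm in both arms, as it was in 23.5% of all genes tested. They included Sema3d, Epha3, Slit3, Ephb6, Sema3b, Sema5a and Neo1. Sema3b, a secreted semaphorin, was at 19.1, 11.7 and 11.7 CPM in NT and 14.2, 8.79 and 10.4 CPM in siID4, so the spread between numbers was wider than the difference between arms. What libraries of one number share is not stated in the labels.

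The plexin genes Plxnc1 and Plxnb3, both below the filter, had more counts in siID4. Plxnc1 had 0, 2 and 2 counts in NT and 8, 9 and 3 in siID4, and Plxnb3 had 2, 0 and 3 in NT and 3, 4 and 13 in siID4. Neither passed in the fit that kept low counts (adjusted p = 0.124 for Plxnc1 and 0.229 for Plxnb3 by edgeR), and 1 siID4 library held most of the Plxnb3 counts.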
